A study of Mus musculus with 2 samples.

Results

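The genes described here are 8 complement genes, taken by symbol from the 31053 gene rows of the matrices: the C1q chains C1qa, C1qb and C1qc, the components C3 and C4b, the inhibitor Serping1 and the receptors C3ar1 and C5ar1. Each symbol matched 1 row. Their transcripts were counted in single cells of mouse lung and are given for macrophage or monocyte-like, fibroblast-like and endothelial cell-like cells, which were found by marker genes. Most C1q UMIs lay in macrophages that were neither alveolar macrophage-like nor monocyte-like. Most UMIs of C3, C4b and Serping1 lay in fibroblast-like cells, and beside them in 5 cells with mesothelial markers, with C4b and Serping1 also in a cluster that took no name. In Hypoxia 7 of the 50 C4b UMIs and 9 of the 134 C3 UMIs lay in macrophage or monocyte-like cells. The C3a and C5a receptors were found in macrophages, and C5ar1 also in neutrophil-like cells.

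Complement is a set of plasma and tissue proteins that tag particles for uptake and recruit leukocytes. C1q binds immune complexes and dying cells and, with the proteases C1r and C1s, starts the classical pathway, which cleaves C4 and C2 and then C3. C1 inhibitor, the product of Serping1, blocks C1r and C1s as well as kallikrein. The fragments C3a and C5a act on the receptors C3aR and C5aR1 of myeloid cells. The liver supplies most plasma complement, while tissue macrophages are a main source of C1q and stromal cells make several other components locally.

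The cells came from NG2tdT mice, a cross of NG2-CreERTM with the Ai14 tdTomato reporter, in which tamoxifen switches on the red protein tdTomato where the Cspg4 promoter drives Cre. All mice had tamoxifen (2 mg per 30 g body weight) and rested for 7 days. The Hypoxia group then breathed 10% oxygen for 21 days and the Normoxia group had no treatment. The labels state that tdT-positive cells were sorted from the digested lungs. Age and sex are not in the labels, and the hypoxia methods of the study name male mice. Each group was 1 library, so there was no replicate spread and no test between groups. Every difference is one between these 2 libraries, and each interval given has 95% confidence and covers only the error of counting. Whether animals were pooled is not stated.

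The Normoxia library held 373 barcodes with 1323874 unique molecular identifiers (UMIs, each 1 captured transcript), and the Hypoxia library held 613 barcodes with 1989423 UMIs. After filters on genes and mitochondrial transcripts, 293 and 453 cells remained, with a median of 3135 and 2818 UMIs. Only 1 Normoxia and 2 Hypoxia cells had a UMI of Cspg4, whose promoter drives Cre. The marker of the sort was tdTomato, so Cspg4 UMIs do not measure the sort. Of other pericyte markers, Pdgfrb was found in 27 Normoxia and 10 Hypoxia cells and Rgs5 in 16 and 2. Kcnj8 was found in 35 and 11 cells and Abcc9 in 30 and 3. Ptprc, the gene for the leukocyte antigen CD45, was found in 57 and 126 cells and the endothelial gene Pecam1 in 140 and 244. By their markers most retained cells were endothelial or immune, and the complement genes below were read largely in such cells and in fibroblasts. The libraries shared 1 retained barcode. Macrophage or monocyte-like cells numbered 28 in Normoxia and 45 in Hypoxia, fibroblast-like cells 39 and 21, and endothelial cell-like cells 113 and 212. Levels are given as CPM, the UMIs of a gene scaled to 1000000 UMIs of the same cells.

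**Figure D1:**
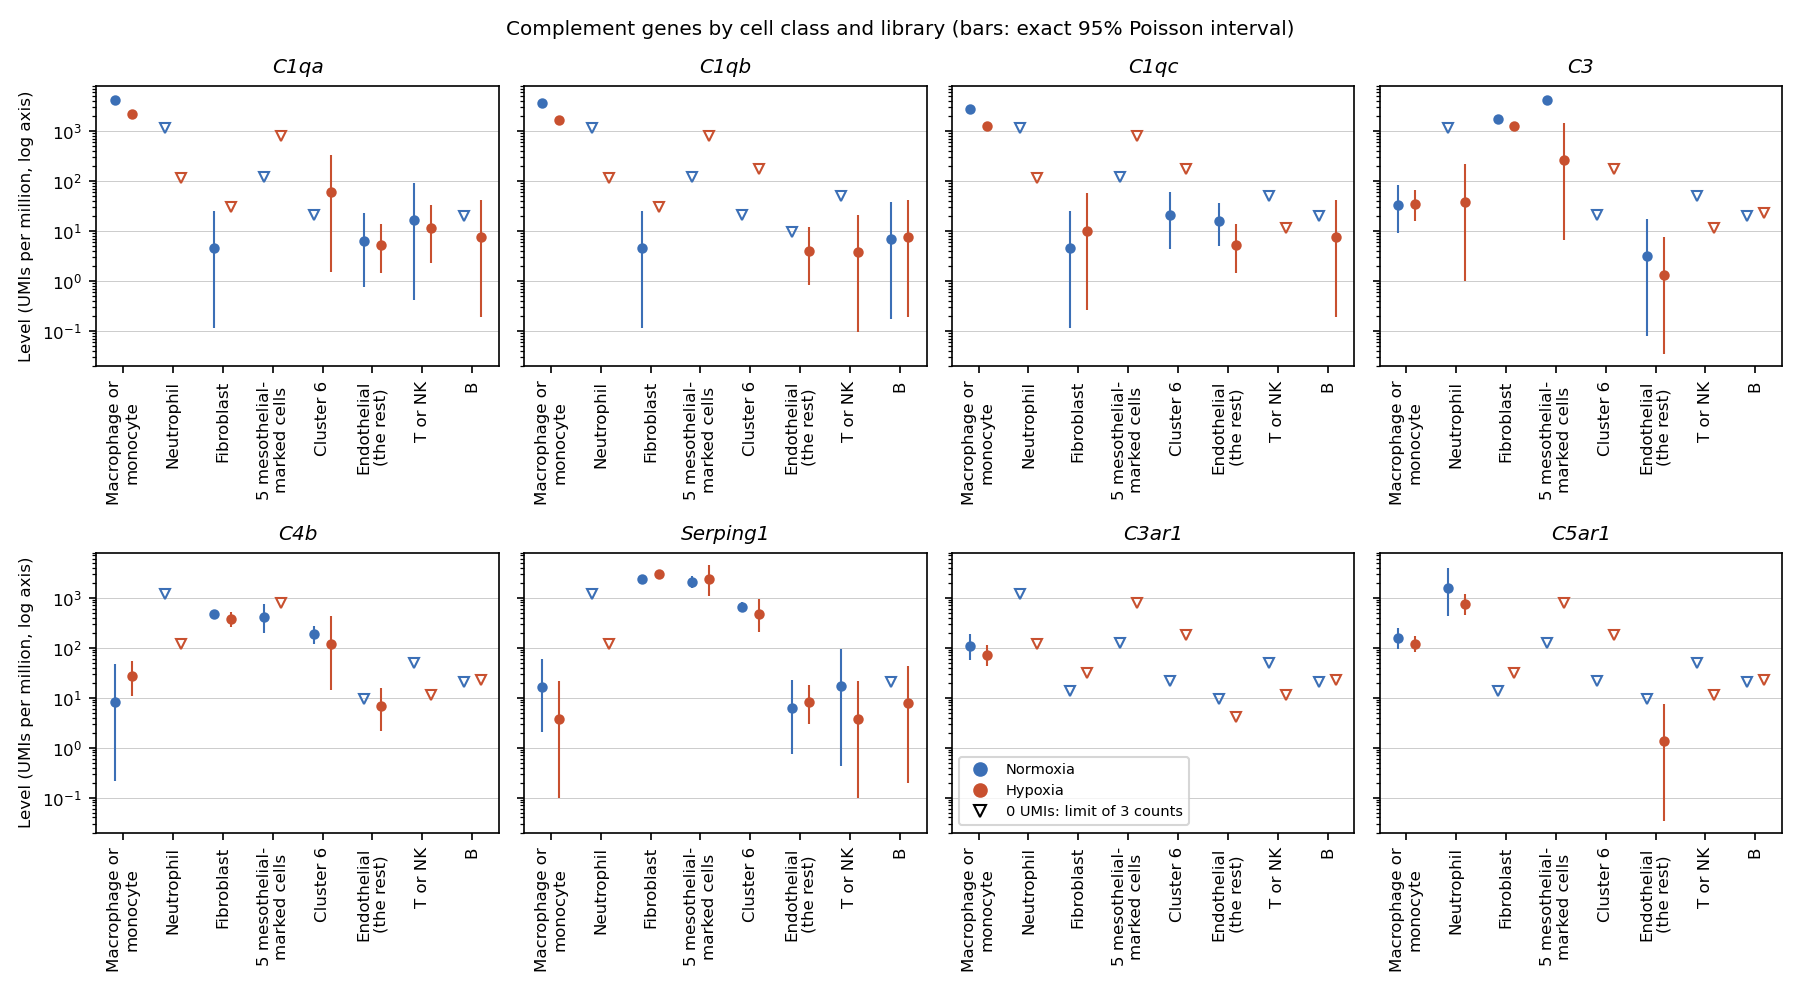
Level of each complement gene in CPM (log axis) by cell class, for Normoxia (blue) and Hypoxia (red), with exact Poisson intervals as bars; open triangles mark classes with 0 UMIs at the limit that 3 counts would give. C1qa, C1qb and C1qc stood high in macrophage or monocyte-like cells, C3 and Serping1 in fibroblast-like cells and in the 5 cells with mesothelial markers, C4b in those cells and in cluster 6, and C5ar1 in macrophage or monocyte-like and neutrophil-like cells.

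C1qa, C1qb and C1qc encode the 3 chains that assemble into C1q. They lie next to each other on the minus strand of chromosome 4 (GRCm38), C1qa at 136895917 to 136898803, C1qc at 136889804 to 136893065 and C1qb at 136880129 to 136886187, together within 18675 bases. The gaps between neighbouring genes are 2851 and 3616 bases. RefSeq promoter sequence was at hand for C1qb and C1qc and is shown because both genes were read in the same cells. The capitals mark GAGGAA, or its reverse complement TTCCTC, a core sequence bound by PU.1, the factor of myeloid cells. The stretches are on the minus strand of GRCm38.p6, at chr4:136886201-136886450 for C1qb and at chr4:136893066-136893164 for C1qc, where bases inside the annotated first exon were left off.
C1qb: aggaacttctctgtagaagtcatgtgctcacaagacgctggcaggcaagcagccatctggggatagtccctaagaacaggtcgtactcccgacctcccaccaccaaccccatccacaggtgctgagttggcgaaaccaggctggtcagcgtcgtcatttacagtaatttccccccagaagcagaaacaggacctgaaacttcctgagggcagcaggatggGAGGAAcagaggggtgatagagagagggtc
C1qc: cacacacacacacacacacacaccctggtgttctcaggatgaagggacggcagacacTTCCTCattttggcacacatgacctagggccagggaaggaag
The match begins 30 bases before the RefSeq start site of C1qb and, on the other strand, 42 bases before the GENCODE start site of C1qc. Over all 32851 promoters of the table, 23.3% held this core in the 250 bases before the start, so the match is a description and not a site.

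The C1q transcripts came almost wholly from macrophage or monocyte-like cells, with 1249 of 1265 UMIs in Normoxia (98.7%) and 1354 of 1374 in Hypoxia (98.5%). Elsewhere the sum of the 3 genes was low. It was 9.68 and 17.8 CPM in lymphoid cells (the T or NK cell-like and B cell-like clusters), which should lack C1q, and 20.3 and 14.8 CPM in endothelial cell-like cells, against 10416 and 5157 CPM in macrophage or monocyte-like cells. After each cell was thinned to 1000 UMIs, 67.9% of the macrophage or monocyte-like cells in Normoxia (47.6 to 84.1%) and 24.4% in Hypoxia (12.9 to 39.5%) had a C1q UMI, and 71.4% and 31.1% without thinning. In lymphoid cells the thinned shares were 0 of 44 cells, and 4 of 129 cells (3.10%).

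Cells either had much C1q or next to none. In Normoxia 20 of 28 macrophage or monocyte-like cells had between 10 and 132 C1q UMIs, with a median of 59, and the other 8 had 0. In Hypoxia 11 of 45 cells had between 25 and 304 UMIs, with a median of 100, while 3 had 1 UMI each and 31 had 0. Every one of the 20 and 11 cells held UMIs of all 3 chains. Scaled to 10000 UMIs of the cell, these cells ranged from 20.1 to 335 in Normoxia (median 163) and from 64.6 to 255 in Hypoxia (median 189), so the ranges overlapped over most of their length.

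Over the whole class the level of each chain was lower in Hypoxia. C1qa had 493 UMIs (4111 CPM) in Normoxia and 571 UMIs (2175 CPM) in Hypoxia, a log2 fold change from Normoxia to Hypoxia of -0.92 (-1.10 to -0.74). C1qb had 431 and 443 UMIs (3594 and 1687 CPM), a log2 fold change of -1.09 (-1.29 to -0.90). C1qc had 325 and 340 UMIs (2710 and 1295 CPM), a log2 fold change of -1.07 (-1.29 to -0.84). The 3 chains thus stood at similar ratios, and their sum had a log2 fold change of -1.01 (-1.13 to -0.90). Of the 2406 genes with at least 20 UMIs in this class, 6.69% were lower by at least 2-fold, 13.1% were higher by as much and 19.8% moved as far in either direction. Among the 5 complement genes described here that had 20 UMIs, C1qb and C1qc passed that fold, both lower, and the median log2 fold change of the 5 was -0.92 against 0.13 for all 2406 genes.

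The class was divided into 6 sub-clusters without the use of complement genes. Sub-cluster 1 (8 Normoxia and 2 Hypoxia cells) was interstitial macrophage-like, with 7 of 8 interstitial markers and Folr2 and Lyve1 among its leading genes. Sub-cluster 4 (6 and 6 cells) was led by Gdf3, Apoe and Trem2, and sub-cluster 5 (7 and 3 cells) by Ccl4, Ccl3 and Cxcl10, each with 10 of 11 macrophage markers. Sub-cluster 2 (3 and 13 cells) was monocyte-like, sub-cluster 3 (4 and 6 cells) was dendritic cell-like, and sub-cluster 6 (0 and 15 cells) was alveolar macrophage-like. The first 3 named here held 1239 of 1249 C1q UMIs in Normoxia and 1351 of 1354 in Hypoxia. They made up 21 of 28 class members in Normoxia (75.0%, 55.1 to 89.3%) and 11 of 45 in Hypoxia (24.4%, 12.9 to 39.5%).

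Within these 3 sub-clusters together, which were joined after their C1q values had been seen, the sum of the chains was 14896 CPM in Normoxia against 17601 CPM in Hypoxia, a log2 fold change of 0.24 (0.13 to 0.35). Without the cell with most C1q UMIs in 1 library it was 0.31 (0.19 to 0.43, Normoxia cell with 132 UMIs left out) or 0.21 (0.09 to 0.33, Hypoxia cell with 304). In them C1qa had a log2 fold change of 0.33 (0.15 to 0.50), C1qb 0.18 (-0.02 to 0.38) and C1qc 0.19 (-0.04 to 0.41). None of the 5 complement genes tested in these cells passed 2-fold, where 16.0% of 985 genes did (7.41% higher and 8.63% lower).

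The 3 sub-clusters are given one by one. In the interstitial macrophage-like cells the C1q sum was 11739 CPM in Normoxia against 12810 CPM in Hypoxia, a log2 fold change of 0.13 (-0.11 to 0.36). Of the 2 Hypoxia cells there 1 held 148 of the 222 UMIs, and without it the Hypoxia level was 6457 CPM and the log2 fold change -0.86 (-1.24 to -0.50), so that this sub-cluster gives no direction. In the cells led by Gdf3, Apoe and Trem2 it was 25422 and 19496 CPM, a log2 fold change of -0.38 (-0.54 to -0.22). In the cells led by Ccl4, Ccl3 and Cxcl10 it was 11210 and 17682 CPM, a log2 fold change of 0.66 (0.41 to 0.90). Without the top cell of either library these were -0.38 or -0.36, and 0.83 or 0.74. The Gdf3, Apoe and Trem2 cells had the highest C1q level in both libraries, but in Hypoxia the interval overlapped that of the Ccl4, Ccl3 and Cxcl10 cells. Single cells overlapped between the libraries in the first and second of these sub-clusters, where the C1q UMIs per 10000 spanned 47.5 to 170 against 64.6 to 252, and 167 to 335 against 102 to 255. In the Ccl4, Ccl3 and Cxcl10 cells they spanned 0 to 182 in 7 Normoxia cells and 159 to 190 in 3 Hypoxia cells, again with overlap.

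**Figure D2:**
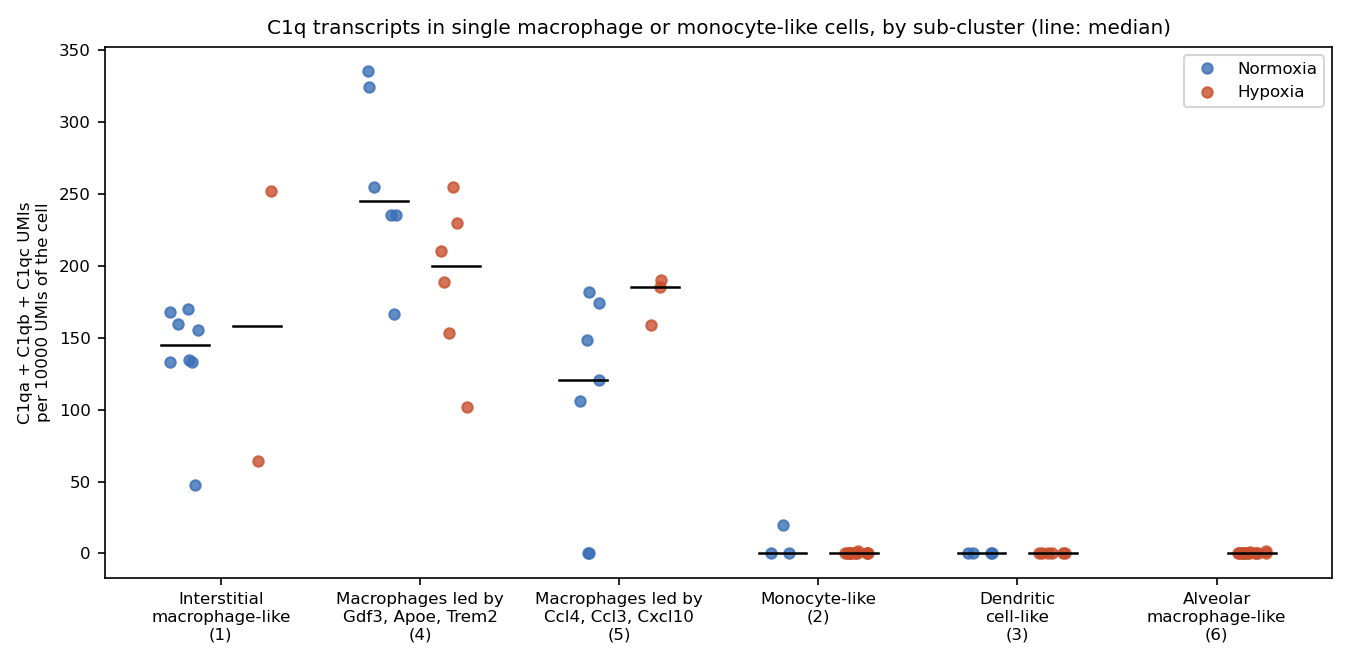
C1q UMIs (C1qa, C1qb and C1qc together) per 10000 UMIs in each macrophage or monocyte-like cell, by sub-cluster and library, with a line at the median. The 3 macrophage sub-clusters on the left reach 335 in Normoxia and 255 in Hypoxia, and the 15 alveolar macrophage-like cells, all from Hypoxia, lie at 1.73 or below.

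The 15 alveolar macrophage-like cells, all from Hypoxia, held 2 C1q UMIs (24.1 CPM), and the 10 dendritic cell-like cells held 0. Of the 13 Hypoxia monocyte-like cells 1 had 1 UMI (17.7 CPM for the 13). These Hypoxia levels compare with 17.8 CPM in the Hypoxia lymphoid cells. The 3 Normoxia monocyte-like cells stood apart, with 10 UMIs in 1 of them and a level of 745 CPM, against 9.68 CPM in the Normoxia lymphoid cells.

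The chains kept nearly the same proportions. C1qa made up 39.7% of the C1q UMIs of the 3 macrophage sub-clusters in Normoxia (37.0 to 42.5%) and 42.1% in Hypoxia (39.5 to 44.8%). C1qb made up 34.1% (31.5 to 36.9%) and 32.7% (30.2 to 35.3%), and C1qc 26.2% (23.7 to 28.7%) and 25.2% (22.9 to 27.6%). For each chain the 2 intervals overlapped.

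**Figure D3:**
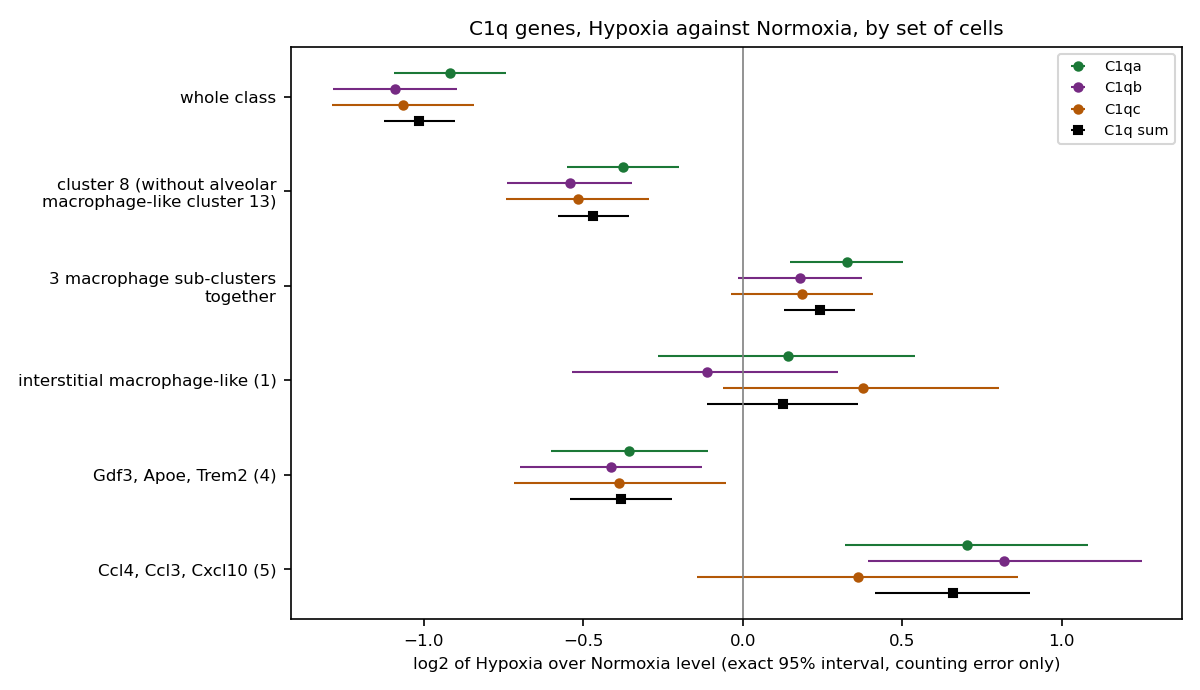
Log2 fold change of Hypoxia over Normoxia level for C1qa, C1qb, C1qc and their sum in 6 sets of macrophage or monocyte-like cells, with exact intervals for counting error. The sum lies at -1.01 in the whole class, at -0.47 without the alveolar macrophage-like cells of cluster 13 and at 0.24 in the 3 macrophage sub-clusters together.

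C3ar1 (chromosome 6, 122847138 to 122856161) encodes the receptor for C3a. All of its UMIs, 13 in Normoxia and 19 in Hypoxia, lay in macrophage or monocyte-like cells, and 12 and 19 of them in the 3 macrophage sub-clusters. Its level in the class was 108 CPM in Normoxia against 72.4 CPM in Hypoxia, a log2 fold change of -0.58 (-1.68 to 0.56). In the 3 macrophage sub-clusters it was 144 and 248 CPM, a log2 fold change of 0.78 (-0.34 to 1.95). Both intervals held 0, so these few UMIs could not show a difference. Cells with at least 10 C1q UMIs included 10 Normoxia and 9 Hypoxia cells with C3ar1.

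C5ar1 (chromosome 7, 16246743 to 16259540) encodes the receptor for C5a, which draws neutrophils and macrophages. It was spread over more cell types than C3ar1. Macrophage or monocyte-like cells had 19 of 23 Normoxia and 31 of 51 Hypoxia UMIs, neutrophil-like cells 4 and 19, and endothelial cell-like cells 0 and 1. The level in macrophage or monocyte-like cells was 158 CPM in Normoxia against 118 CPM in Hypoxia, a log2 fold change of -0.42 (-1.29 to 0.48). Unlike C1q, C5ar1 was present in the alveolar macrophage-like cells, which held 20 of the 31 Hypoxia UMIs (241 CPM). Without them, in cluster 8, its level was 158 and 61.2 CPM, a log2 fold change of -1.37 (-2.59 to -0.23). In the 3 macrophage sub-clusters it was 228 and 130 CPM, from 19 and 10 UMIs, a log2 fold change of -0.81 (-2.08 to 0.37) whose interval held 0. In the neutrophil-like cells, 2 in Normoxia and 28 in Hypoxia, C5ar1 stood at 1550 and 743 CPM, a log2 fold change of -1.06 (-2.65 to 0.95) that rests on 4 Normoxia UMIs.

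C3 (chromosome 17, 57203970 to 57228136, minus strand) encodes the component on which all complement pathways meet. The sequence before its start site is shown beside those of C1qb and C1qc since C3 was read in other cells. It lies at chr17:57228137-57228386 of GRCm38.p6, minus strand, and has no GAGGAA on either strand. The promoters of C3ar1 and C5ar1 also had no GAGGAA on either strand in the 250 bases before the RefSeq start. Both of these genes were read mainly in macrophage or monocyte-like cells, so the core did not separate the genes of these cells from C3.
C3: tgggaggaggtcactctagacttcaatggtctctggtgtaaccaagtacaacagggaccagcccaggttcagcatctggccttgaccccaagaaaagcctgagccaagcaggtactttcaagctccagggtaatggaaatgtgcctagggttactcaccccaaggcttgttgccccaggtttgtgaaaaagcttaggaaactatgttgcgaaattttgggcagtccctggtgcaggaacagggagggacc
The hypoxia response core ACGTG, which 16.6% of all promoters held in the same window, was found on neither strand in the 250 bases before the RefSeq start of any of the 5 complement genes with a promoter in the table, nor was GCGTG, which 28.2% held.

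Fibroblast-like cells held 391 of 501 C3 UMIs in Normoxia and 122 of 134 in Hypoxia. Macrophage or monocyte-like cells held 4 and 9, and 5 of those 9 lay in the alveolar macrophage-like cells (60.3 CPM). Over all retained cells C3 was at 450 CPM in Normoxia against 84.2 CPM in Hypoxia, a log2 fold change of -2.42 (-2.71 to -2.14), and in such a sum fewer cells of a type and less RNA per cell cannot be told apart. Within fibroblast-like cells its level was 1763 CPM in Normoxia against 1254 CPM in Hypoxia, a log2 fold change of -0.49 (-0.80 to -0.19). When classes were taken from the markers of single cells in place of clusters it was -0.031 (-0.34 to 0.27). That naming held the same 391 and 122 C3 UMIs but 80 and 26 cells in place of 39 and 21. The ratio thus moved only through the total UMIs of the cells taken in. The share of fibroblast-like cells was 13.3% of Normoxia and 4.64% of Hypoxia cells. Single cells ran from 0 to 67 C3 UMIs in Normoxia (median 7) and from 0 to 25 in Hypoxia (median 2), with 7 cells at 0 in each library, so the libraries overlapped. Several Hypoxia cells at 0 were shallow, with 646 to 958 UMIs in all. Apart from a cell with 738, the Normoxia cells at 0 had 2415 UMIs or more. Thinned to 1000 UMIs, which leaves out cells below that depth, 52.6% (35.8 to 69.0%) and 37.5% (15.2 to 64.6%) of the cells had C3. Without thinning it was 82.1% and 66.7% of all fibroblast-like cells.

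C4b (chromosome 17, 34728380 to 34743882, minus strand) encodes the component C4, which carries the signal of C1 to C3. Fibroblast-like cells gave 104 and 36 UMIs (469 and 370 CPM), a log2 fold change of -0.34 (-0.93 to 0.22) whose interval held 0. A single Normoxia cell held 43 of the 104 UMIs, and 26 of 39 Normoxia and 11 of 21 Hypoxia cells held 0. Macrophage or monocyte-like cells had 1 of 142 C4b UMIs in Normoxia and 7 of 50 in Hypoxia. Those 7 lay in the 2 Hypoxia interstitial macrophage-like cells (404 CPM). C4b has a near copy, C4a, with no row in the matrices, and 38.1% of the 50-base windows in the last 500 bases of C4b also occur in a C4a transcript. The C4b counts are uncertain to that extent.

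Serping1 (chromosome 2, 84765387 to 84775444, minus strand), the gene for C1 inhibitor, was the one of the 3 that stood higher in Hypoxia in fibroblast-like cells. Its UMIs numbered 521 and 294 (2350 and 3022 CPM), a log2 fold change of 0.36 (0.15 to 0.57). The interval held 0 with a mitochondrial maximum of 10% (0.20, -0.01 to 0.40), with none (0.20, -0.003 to 0.39) and without fibroblast sub-cluster 3 (0.17, -0.06 to 0.39). Nearly every fibroblast-like cell carried it. Cells ran from 0 to 38 UMIs in Normoxia (median 13, 1 cell at 0) and from 0 to 37 in Hypoxia (median 11, 2 cells at 0), and 32 and 14 cells held both Serping1 and C3. None of C3, C4b and Serping1 passed 2-fold in fibroblast-like cells, where 17.3% of 2392 genes did (11.2% lower) and the median of all genes was -0.10.

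The fibroblast-like cells fell into 3 sub-clusters. In sub-cluster 1 (21 Normoxia and 10 Hypoxia cells, led by Sult1e1, Cpe and Cilp) the log2 fold change was -0.60 (-1.02 to -0.19) for C3, 1.14 (0.16 to 2.09) for C4b and -0.44 (-0.81 to -0.09) for Serping1. In sub-cluster 2 (8 and 10 cells, led by Aqp1 and Nebl) it was -0.67 (-1.26 to -0.10) for C3, -2.43 (-3.29 to -1.66) for C4b and 0.42 (0.09 to 0.76) for Serping1. Sub-cluster 3 (10 and 1 cells, led by Dmkn and Krtdap) had 1 Hypoxia cell, which allows no comparison of cells. Single cells decided several of these values. In sub-cluster 2, 1 Normoxia cell held 35 of 60 C3 UMIs, and without it C3 was at 718 CPM in Normoxia against 937 CPM in Hypoxia (0.38, -0.35 to 1.15). In sub-cluster 1, 1 Hypoxia cell held 11 of 18 C4b UMIs, and without it C4b was at 190 CPM in Normoxia against 182 CPM in Hypoxia (a log2 fold change of -0.06, whose interval held 0). Without the Normoxia cell that held most UMIs of the gene, the intervals of sub-cluster 1 also held 0 for C3 (-0.29, -0.72 to 0.13) and for Serping1 (-0.34, -0.71 to 0.02). The cell with 43 C4b UMIs was in sub-cluster 2, where the Normoxia sum was 75, and without it C4b there was at 919 and 346 CPM (-1.41, -2.35 to -0.52). Serping1 in sub-cluster 2 was 0.55 (0.19 to 0.91) or 0.50 (0.15 to 0.85) without the top cell of the Normoxia or the Hypoxia library. The highest Serping1 values per 10000 UMIs, up to 76.2, were Hypoxia cells of sub-cluster 2, against at most 46.9 in its Normoxia cells.

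**Figure D4:**
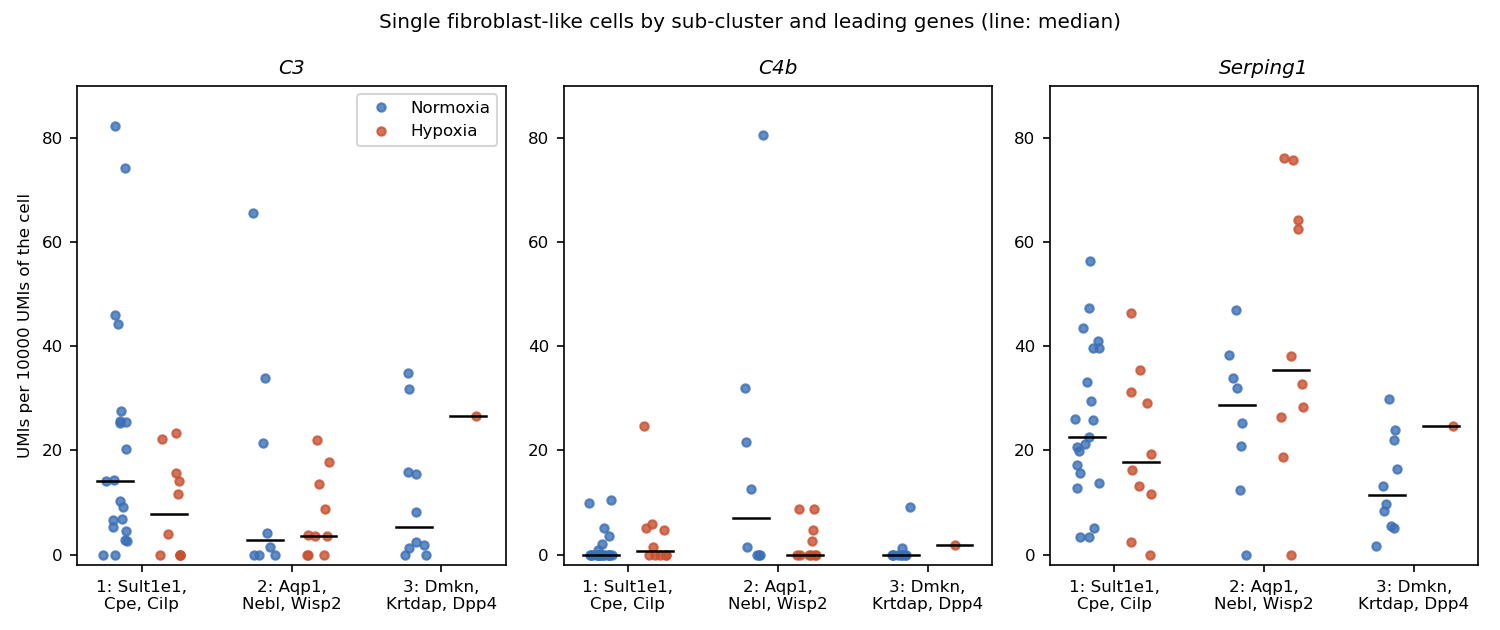
C3, C4b and Serping1 UMIs per 10000 UMIs in each fibroblast-like cell, by sub-cluster and library, with a line at the median. The highest C3 cell, at 82.3, is a Normoxia cell of sub-cluster 1 and the highest C4b cell, at 80.7, a Normoxia cell of sub-cluster 2, whereas Serping1 reached 76.2 in Hypoxia cells of sub-cluster 2.

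Cluster 6, which took no name and was led by Hhip, Igfbp3 and Rgs5, carried Serping1 and C4b without C3. It had 8 fibroblast and 4 pericyte markers, but other classes had more markers than fibroblasts among its 10 leading genes. Its cells are therefore not in the fibroblast-like values. Its 45 Normoxia and 6 Hypoxia cells held 94 and 8 Serping1 UMIs (662 and 475 CPM), a log2 fold change of -0.48 (-1.73 to 0.56), and 26 and 2 C4b UMIs (183 and 119 CPM). C3 was at 0 UMIs in both libraries, which allows up to 21.1 CPM in Normoxia against 178 CPM in Hypoxia. A difference between the libraries was not detectable with 6 Hypoxia cells.

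Endothelial cell-like cells, taken as named, had 53 Serping1 UMIs in Normoxia and 15 in Hypoxia (154 and 20.1 CPM), a log2 fold change of -2.94 (-3.87 to -2.09), and 106 and 2 C3 UMIs. Both genes tested in the class were lower by over 2-fold, where 5.19% of 6741 genes were lower and 6.02% higher by as much, 11.2% in either direction. These UMIs lay in few cells. In cluster 9, 4 Normoxia cells and 1 Hypoxia cell had UMIs of all 5 mesothelial markers searched (Msln, Upk3b, Wt1, Lrrn4 and Rspo1, genes of the lining of the pleura) and of at most 1 of 12 endothelial markers. They held 105 and 1 of the C3 UMIs, 51 and 9 of the Serping1 UMIs and 10 and 0 of the C4b UMIs. Of the other endothelial cell-like cells, 108 in Normoxia and 211 in Hypoxia had none of these markers and 1 had a UMI of 1.

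Without these 5 cells, which were singled out after their values had been seen, the endothelial cell-like cells held 2 Serping1 UMIs in Normoxia and 6 in Hypoxia (6.26 and 8.09 CPM), too few to give a direction. C3 was then at 1 and 1 UMIs, and C4b at 0 and 5. The Serping1 level was close to that in lymphoid cells, 4.84 and 5.09 CPM, and was read as background. No complement gene described here then reached 20 UMIs in the class, where 10.8% of 6602 genes moved by 2-fold (6.47% higher and 4.36% lower). Cluster 2 held 53 of the 113 Normoxia cells of the class and cluster 3 held 107 of the 212 Hypoxia cells.

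In the 5 cells themselves C3 stood at 4239 CPM in the Normoxia cells and at 263 CPM in the 1 Hypoxia cell, and the Serping1 level was 2059 and 2365 CPM. The C4b level was 404 CPM in the Normoxia cells. Mesothelial-marked cells therefore carried both C3 and Serping1, as did fibroblast-like cells, but at other C3 levels. Fibroblast-like cells had C3 at 1763 CPM in Normoxia and 1254 CPM in Hypoxia, and Serping1 at 2350 and 3022 CPM. The 1 mesothelial-marked Hypoxia cell gives no measure of its group.

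**Figure D5:**
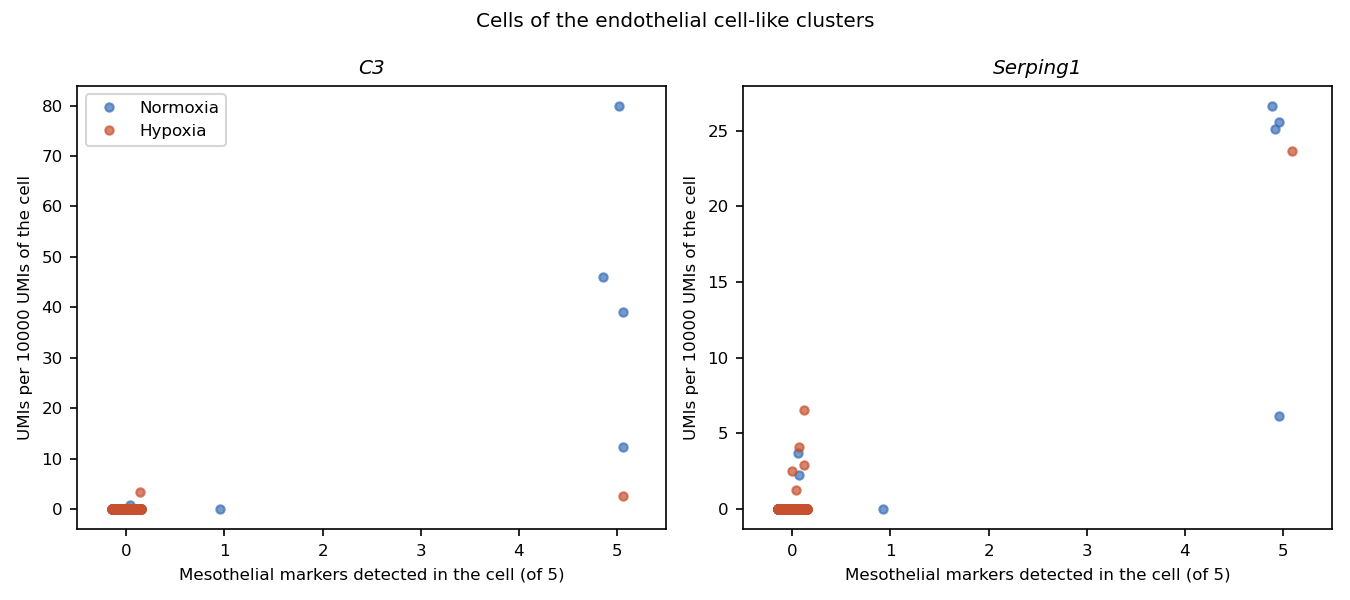
C3 and Serping1 UMIs per 10000 UMIs in each cell of the endothelial cell-like clusters, against the number of 5 mesothelial markers with a UMI in that cell. The 5 cells at the right, 4 from Normoxia and 1 from Hypoxia, hold 106 of the 108 C3 UMIs and 60 of the 68 Serping1 UMIs.

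The other complement genes were read from a list of 52, of which 51 had a row. Over all retained cells 13 of them were at 0 UMIs, 13 had 1 to 19 and 25 had 20 or more. In macrophage or monocyte-like cells 11 genes of the list had 20 UMIs, of which 2 were higher and 4 lower by at least 2-fold in Hypoxia, with a median log2 fold change of -0.58. Of all genes in the class, 13.1% were higher and 6.69% lower by as much. Beside C1qb and C1qc, the lower genes included Cfp, which encodes properdin, the stabiliser of the alternative convertase (38 and 41 UMIs, log2 fold change -1.02, -1.69 to -0.35). The higher genes were Itgax and Itgb2, chains of the complement receptor CR4, with 3 and 49 UMIs (2.90, 1.27 to 5.23) and 12 and 83 UMIs (1.66, 0.78 to 2.67). In the 3 macrophage sub-clusters 2 of 10 genes were higher, Itgb2 with 6 and 19 UMIs and Itgam, its partner in CR3, with 10 and 22 UMIs, and 0 were lower, beside 7.41% and 8.63% of all genes. Itgax had 1 and 8 UMIs there, so most of its Hypoxia UMIs lay in the other sub-clusters.

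In fibroblast-like cells 11 genes of the list had 20 UMIs, with a median log2 fold change of 0.04. Only C2, the gene for the protease that joins C4b in the classical convertase, passed 2-fold, with 9 and 13 UMIs (1.72, 0.38 to 3.13), against 6.10% of all genes higher by as much. The proteases of C1 were both present. C1ra had 121 and 50 UMIs (546 and 514 CPM), a log2 fold change of -0.09 (-0.59 to 0.40), and C1s1 had 102 and 78 UMIs (460 and 802 CPM), a log2 fold change of 0.80 (0.36 to 1.24). The C1s1 interval lay above 0. Cfb, the protease of the alternative pathway, had 33 and 10 UMIs (-0.53, -1.72 to 0.52), and Cd55, a membrane inhibitor, 40 and 16 (-0.13, -1.07 to 0.74).

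The endothelial cell-like cells left without the mesothelial-marked ones were not all shown to be endothelium. The remaining members of cluster 9 were 15 from Normoxia, 6 of them without any of the 12 endothelial markers, and 18 from Hypoxia, 4 of them without any. The gene that led this cluster was Scgb1a1, a gene of club cells, with 5067 and 1781 of its UMIs in 2 Normoxia cells and 14567 in 1 Hypoxia cell. Over the whole class 7 and 4 cells had none of the endothelial markers.

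In these cells 3 genes of the list had 20 UMIs. Clu, the gene for clusterin, an inhibitor of the terminal complex, had 215 and 208 UMIs (673 and 280 CPM), a log2 fold change of -1.26 (-1.55 to -0.98), and was the 1 gene past 2-fold. Without the 11 cells that had no endothelial marker it was -1.36 (-1.65 to -1.07). Cd93, once described as a C1q receptor, had 255 and 458 UMIs (-0.37, -0.60 to -0.14). Cr1l, the gene for the membrane regulator Crry, had 39 and 89 UMIs (122 and 120 CPM, -0.03, -0.58 to 0.56). Cluster 2 had a Clu log2 fold change of -0.83 (-1.86 to 0.17) and cluster 3 of -1.34 (-2.50 to -0.05). It was -1.38 (-2.03 to -0.75) in cluster 9 with the mesothelial-marked cells and -0.23 (-0.57 to 0.11) in cluster 10, led by Car4 and Emp2, where its level was highest (1868 and 1596 CPM). Cluster 10 made up 21 of these 109 Normoxia cells and 22 of these 211 Hypoxia cells. The pooled Clu value of -1.26 therefore mixes the level within clusters with the share of cluster 10, and the 2 were not tested apart.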

How the data were processed

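Single-cell RNA libraries of 1 Normoxia and 1 Hypoxia group, made with the Chromium Next GEM Single Cell 3' chemistry, were analysed. The deposited matrices hold UMI counts of each gene in each barcode, which the authors did not normalize. Per the file headers they come from Cell Ranger 3.1.0, and the labels name the genome build mm10 and the tools Cell Ranger and Seurat. The study's methods describe a whole-lung preparation depleted of CD45 and CD326 cells, whereas the labels describe sorted cells.

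Cells with 200 to 6000 genes and no more than 5% mitochondrial UMIs were kept (293 of 373 and 453 of 613 barcodes, 51 and 146 left out for mitochondrial UMIs). Clustering of all kept cells used scanpy 1.11.5 (10000 UMIs per cell, 2000 variable genes without complement genes, 15 components, 15 neighbours, Leiden resolution 1). A cluster took a class name when at least 4 of its markers were found in 25% of its cells at 2 times the median CPM over clusters and no other class had as many. Also, no other class could have more markers among the 10 leading genes of the cluster. A cluster with a median depth below the library median divided by 3 also needed 1 marker of the class there. The minimum of 4 markers, the sub-clusters (10 components, resolution 1 or 0.5) and the mesothelial minimum of 3 markers were set after the clusters had been seen. Scrublet marked 1 and 2 doublets, which were kept in the values given.

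CPM were computed from summed UMIs, with exact Poisson intervals, exact conditional binomial intervals for ratios and Clopper-Pearson intervals for shares, at 95% confidence and for counting error only. No test was run, since cells do not replicate a group. A ratio is described where a gene had at least 20 UMIs over both libraries, and a gene counted as past the fold at a log2 ratio of 1. The genes named are the 8 complement genes, the genes of the complement list with 20 UMIs in a class, and the 5 genes most like each main gene; cluster 6 and single endothelial clusters were chosen after their values were seen. One gene of the complement list that the rule would name is not reported here. The genes and lists were chosen with earlier results of these data known. Ratio intervals were tried on simulated Poisson counts. These follow the model of the interval and lack the spread between cells seen here, so they check only the computation. Positions come from GENCODE M21 and promoter sequences from RefSeq, both on GRCm38. The promoter table held 5 of the 8 genes. C1qa, C4b and Serping1 had no entry.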

Additional observations from a re-analysis of the deposited data

Results flagged for a closer look

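Complement transcripts were also counted in the barcodes that the filters left out, which the main values did not use; the alternatives with another mitochondrial maximum took some of them in. The 80 Normoxia barcodes left out held 108 C1qa, 77 C1qb, 71 C1qc, 110 C3, 50 C4b, 70 Serping1 and 4 C3ar1 UMIs, each above the limit of 3 counts. The 160 Hypoxia barcodes left out held 198 C1qa, 180 C1qb, 140 C1qc, 38 C3, 46 C4b, 46 Serping1, 5 C3ar1 and 20 C5ar1 UMIs. The C1qa UMIs lay in 6 Normoxia and 11 Hypoxia barcodes, and those of C3 in 8 and 11. In Hypoxia the barcodes left out had C4b at 116 CPM (84.8 to 154), against 31.4 CPM in the retained cells.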

How the results depend on the processing

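No paired analysis was possible because each group was 1 library. The C1q sum in macrophage or monocyte-like cells (log2 fold change -1.01) stayed within its counting interval under 10 of 14 alternatives. It was -1.46 with equal weight per cell, -1.19 without the cell with most C1q UMIs in each library and -0.47 in cluster 8 alone, and it was 0.24 in the 3 macrophage sub-clusters. C3 in fibroblast-like cells (-0.49) was -0.031 when classes came from single cells, with the same C3 UMIs but 80 and 26 cells, and -0.96 with equal weight per cell. Serping1 in fibroblast-like cells (0.36) was 0.64 with classes from single cells, and its interval held 0 with a mitochondrial maximum of 10% (0.20, -0.01 to 0.40), with none, and without fibroblast sub-cluster 3 (0.17). C4b stayed between -0.68 and -0.07 under all 13. Its interval lay below 0 without fibroblast sub-cluster 3 (-0.68, -1.28 to -0.11) and held 0 under the other alternatives that had an interval. Serping1 in endothelial cell-like cells (-2.94) was -2.03 with equal weight per cell and was above 0 under 6 of 14 alternatives, all with few UMIs and an interval that held 0, at 0.54 with a mitochondrial maximum of 10%, 0.64 with none, 0.37 with 30 components, 0.029 with classes from single cells, 0.37 without the mesothelial-marked cells and 0.23 without cluster 9. With 50 UMIs as the minimum, 6.18% of genes in endothelial cell-like cells passed 2-fold in place of 11.2%. The sets of 3 macrophage sub-clusters, cluster 8, and cells without mesothelial markers, cluster 9 or fibroblast sub-cluster 3, and the top-cell values of sub-clusters, were chosen after seeing the data. Limits are the 1 library per group and the few cells, 73 macrophage or monocyte-like and 60 fibroblast-like.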

Other observations

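The genes most like each complement gene were sought over 16 groups (class or unnamed cluster, by library) by Pearson's r of log2(CPM + 10) among 9805 genes. The groups share libraries and differ in depth, so r is a description. The C1q sum was most like Ptpro (0.970), Fcna (0.970), the gene for ficolin A of the lectin pathway, Ms4a7 (0.968), Clec4b1 (0.967) and Tnip3 (0.964). Almost all C1q UMIs lay in the macrophage or monocyte-like groups, so this r mainly shows that a gene was read there. Fcna had only 21 UMIs and Tnip3 only 20. C3 was most like Efemp1 (0.95), Ifi205 (0.924), Gpc3 (0.923), Wt1 (0.905) and Vwa1 (0.905). The endothelial cell-like groups kept the mesothelial-marked cells, which had UMIs of Wt1. In Normoxia these cells held 105 of the 106 C3 UMIs of that class, so they enter the likeness of C3 to Wt1. C4b was most like Adamts2 (0.981), Col1a2 (0.970), Col14a1 (0.967), Gstm5 (0.966) and Ccdc80 (0.958). Serping1 was most like Col1a2 (0.980), Bicc1 (0.971), Col1a1 (0.969), Fbln1 (0.968) and Gpx8 (0.968).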
